A study of Mus musculus and Homo sapiens with 28 samples.

Results

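The 30 genes described here carry cholesterol synthesis, its control by the SREBP transcription factors, and the transport, efflux and storage of sterols. They were chosen by name, with earlier results of these data known. They are 8 enzymes that lead to squalene, 10 that turn squalene into cholesterol, 5 genes of SREBP control and 7 genes of sterol handling. All 30 had a row in both expression tables, among 56269 rows in the human and 46078 in the mouse table, and all 30 were tested, among 29353 human and 15916 mouse genes.

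RNA sequencing covered 28 libraries of 6 groups. 786-O cells, a human clear cell renal carcinoma line with wild type as its labelled genotype, were given LY2606368, a CHK1 inhibitor (2 libraries), or left untreated (2 libraries). The design text speaks of 2 separate experiments, and the libraries were assigned to them by the replicate number in their titles, which is an inference. The treatment protocol gives 25 nM for 48 h but names another compound, LY2603618, so the identity of the agent is uncertain. Renca cells, a mouse renal carcinoma line, were grown as subcutaneous tumours. Tumours labelled SETD2 KD came from mice given VE822, an ATR inhibitor (5 libraries), or untreated mice (6 libraries), and tumours labelled WT likewise from VE822 mice (6 libraries) or untreated mice (7 libraries). VE822 was given by gavage at 60 mg/kg on 5 days a week. The labels do not say how SETD2 was lowered, in how many clones, or in which mouse strain, and they call the tissue kidney although the protocol puts the tumours under the skin.

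In animal cells SREBP-2, made by SREBF2, and SREBP-1, made by SREBF1, wait in the endoplasmic reticulum bound to the escort protein SCAP. When sterols are plentiful, INSIG1 and INSIG2 hold SCAP there. When sterols run low, SCAP carries the SREBPs to the Golgi, where proteases free the part that enters the nucleus and switches on the genes of cholesterol synthesis. The liver X receptors, NR1H2 among them, sense oxidised sterols and raise the export pumps ABCA1 and ABCG1 and the ubiquitin ligase MYLIP, which limits lipoprotein uptake. This is background knowledge and not a result of these data.

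SREBPs bind sterol response elements, usually beside sites for NF-Y and Sp1, so the mouse promoters were searched on both strands for TCACNCCAC (a sterol response element), CCAAT (NF-Y) and GGGCGG (Sp1). RefSeq promoters (build GRCm38.p6, 250 bases before to 50 after a start) matched 24 of the 30 genes, with 32 promoters among 32851 of 27025 genes. The promoters of Hmgcs1 and of one start of Dhcr7 are shown because both genes are markers of the set, with RNA that fell in tumours labelled WT. Hmgcs1 lies at chr13:119690101-119690400 on the plus strand and this Dhcr7 start at chr7:143829964-143830263 on the plus strand, and capitals mark the sterol response element and CCAAT or its complement.
Hmgcs1: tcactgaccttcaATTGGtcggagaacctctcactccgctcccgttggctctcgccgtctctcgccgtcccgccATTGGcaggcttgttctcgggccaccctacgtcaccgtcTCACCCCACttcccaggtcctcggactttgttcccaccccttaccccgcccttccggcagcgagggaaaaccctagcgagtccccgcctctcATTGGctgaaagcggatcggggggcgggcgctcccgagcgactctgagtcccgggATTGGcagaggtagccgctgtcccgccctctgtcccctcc
Dhcr7: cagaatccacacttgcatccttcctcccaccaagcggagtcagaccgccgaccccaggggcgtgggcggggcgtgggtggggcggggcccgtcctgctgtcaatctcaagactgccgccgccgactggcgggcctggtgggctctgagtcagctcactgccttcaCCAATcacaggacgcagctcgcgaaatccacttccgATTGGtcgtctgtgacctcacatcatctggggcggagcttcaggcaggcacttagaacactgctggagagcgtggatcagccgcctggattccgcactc

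The Hmgcs1 promoter held a sterol response element, TCACCCCAC, whose first base lies 137 bases before the start, and 4 CCAAT matches. TCACNCCAC occurs in 1.24% of all promoters of this length, and in 1 of the 32 promoters of these genes. No other form of the element was searched, so other forms may be present. Genes without a matched promoter, Sqle and Stard4 among them, were not searched at all. CCAAT occurs in 37.4% of all promoters and was found in 21 of the 32, in 20 genes. GGGCGG occurs in 35.7% of all and was found in 26 of the 32, in 22 genes. The Dhcr7 start shown held 2 CCAAT and 3 GGGCGG matches, and the other 2 Dhcr7 promoters held no CCAAT. None of the 95 matches overlapped a match of another motif. Hsd17b7, whose RNA did not pass the test in any Renca comparison, held 3 CCAAT matches. A match of letters is a description of these windows and not a binding site.

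Of the 9 renal and tumour line markers, Renca tumours held high levels of Krt8 (median rlog 15.35 over 24 libraries, rlog being the authors' log2 scale), Vim (15.93), Krt18 (14.33), Cdh16 (11.87), Pax8 (11.33) and Pax2 (9.82), and lower ones of Krt19 (7.39), Epcam (6.44) and Lhx1 (5.52). The 786-O counts here are raw and not scaled to depth. In 786-O cells KRT8 had 15844 and 15400 counts with LY2606368, against 20640 and 20057 untreated. PAX8 had 5398 and 6393 counts with LY2606368 against 8320 and 7757 untreated, and PAX2 had 164 and 148 against 588 and 785. CDH16 and EPCAM were low there, with 20 to 136 and 105 to 213 counts over the 4 libraries. The Setd2 RNA did not follow the SETD2 KD label: it averaged 10.81 ± 0.07 rlog in untreated tumours labelled SETD2 KD and 10.83 ± 0.07 in untreated tumours labelled WT (SD, n = 6 and 7), and under VE822 it averaged 9.72 ± 0.21 in those labelled SETD2 KD and 10.03 ± 0.29 in those labelled WT (SD, n = 5 and 6). The groups are therefore named by their labels only. A library of SETD2 KD VE822 (replicate 4) and 4 libraries labelled WT (VE822 replicates 1, 2 and 4 and untreated replicate 4) stood apart, the first on the second principal component and the WT ones by a mean of skeletal muscle genes above 6 rlog, and results are also given without these 5. The recovered 786-O totals were 20834400 to 21447859 counts with LY2606368 and 23492424 to 23956007 untreated, and the depth of the Renca libraries is unknown.

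Treatment lowered cholesterol synthesis RNA in tumours of both labels. Under the SETD2 KD label, VE822 lowered 12 of the 30 genes and raised 1, at limma adjusted p under 0.05, against 11.6% of all genes called lower and 10.6% called higher. Among tumours labelled WT, it lowered 21 and raised 2, against 17.5% of all genes lower and 17.2% higher. As the set was chosen with earlier results known, these counts describe it and do not test it. Of the 18 synthesis enzymes, 8 fell in tumours labelled SETD2 KD (median difference −0.33, log2) and 15 fell in those labelled WT (median −0.53), while the median over all genes tested was 0.01 in both. The 12 genes lowered in tumours labelled SETD2 KD were all among the 21 lowered in those labelled WT: Mvk, Mvd, Fdps, Fdft1, Sqle, Lss, Nsdhl, Dhcr7, Srebf2, Scap, Stard4 and Mylip. The share of all genes lowered under both labels is not given, so this overlap has no background to stand against.

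In 786-O cells LY2606368 lowered 6 of the 30 genes and raised 3, against 6.16% of all genes lower and 7.05% higher. HMGCS1, ACAT2, FDPS, EBP, SREBF1 and STARD4 fell, and MYLIP, SOAT1 and NR1H2 rose. The difference was below 0 for 25 of the 30 genes and for 17 of the 18 enzymes (median of the enzymes −0.68, median of all genes 0.08, log2). With the replicate number as a block, 15 genes were lower and 3 higher, against 9.71% of all genes lower and 9.31% higher, so the background rose as well. The 786-O calls rest on 2 libraries a group. With 1 library left out, the lone library of a group is assumed to vary like the 2 of the other, which alone give the spread. Only differences are therefore given for those fits. None of the 9 calls in 786-O cells held in all 8 alternatives. No call of any gene could, since limma without the mean-variance trend, 1 of the 8, called 0 of all genes. Over the 8 alternatives, those that leave out a library included, HMGCS1 ranged from −1.66 to −1.08 and STARD4 from −1.607 to −1.188 (log2). SREBF1 ranged from −1.291 to −0.926 and EBP from −0.858 to −0.727. ACAT2, HMGCS1, FDPS, EBP and STARD4 were lower both in 786-O cells and in WT-labelled tumours, an overlap also given without its share over all genes.

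**Figure D1:**
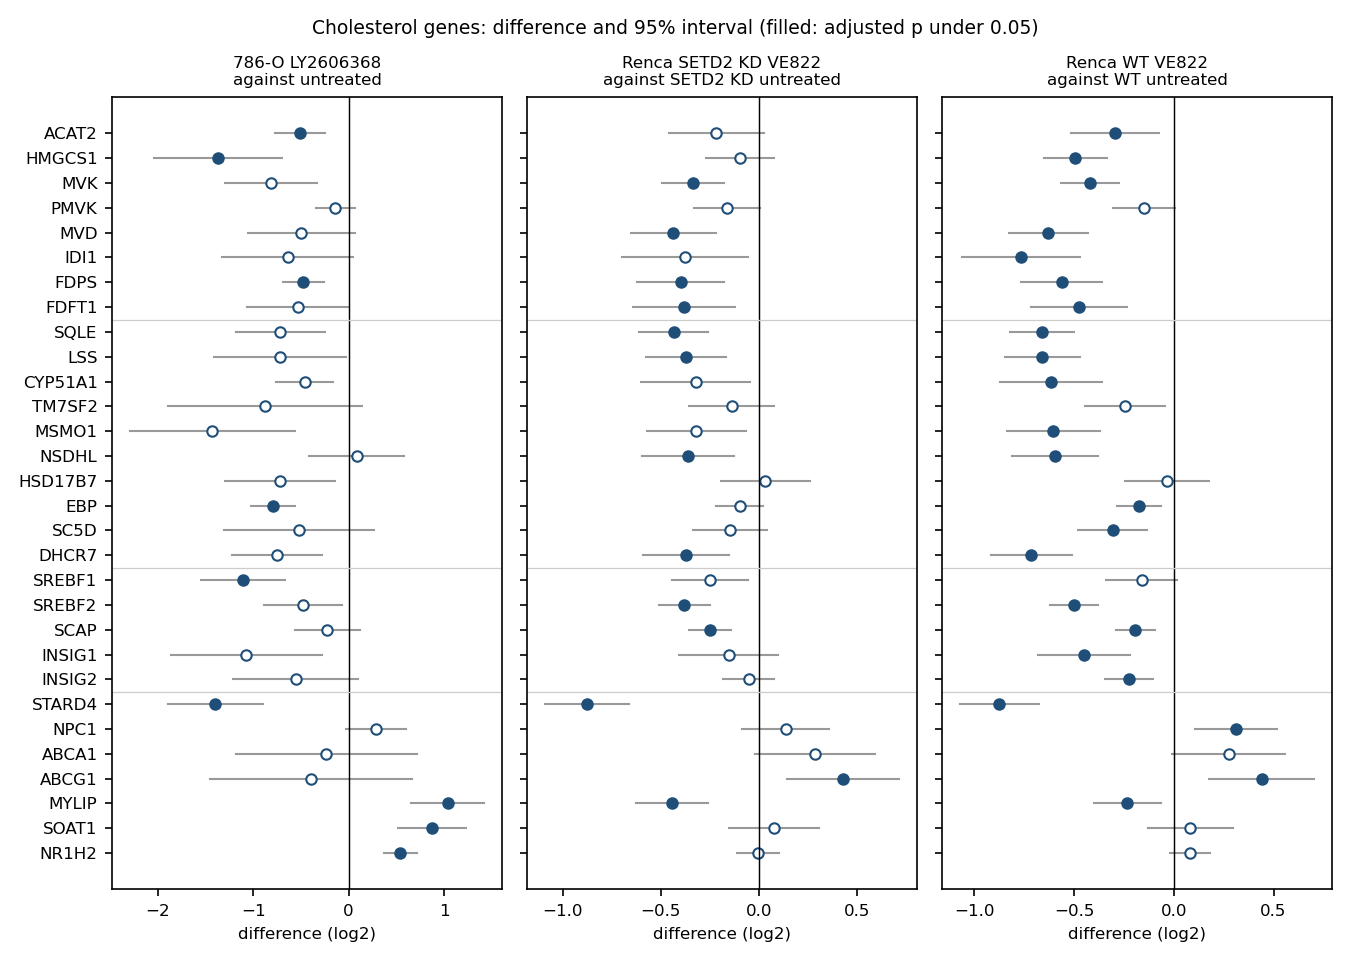
Difference (log2, points) and 95% interval (lines) of each of the 30 genes, with filled points where the limma adjusted p was under 0.05, in 786-O cells given LY2606368 against untreated cells and in Renca tumours of mice given VE822 against untreated mice, for each label. The enzymes in the upper 2 blocks lie mostly left of 0 in all 3 panels, with 4, 8 and 15 of the 18 filled from left to right.

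Complete separation of the libraries was also counted. In tumours labelled SETD2 KD, every VE822 library lay below every untreated library for 12 genes, 8 of them enzymes, against 5.95% of all genes. Under the WT label, this held for 9 genes, 7 of them enzymes, against 7.84% of all genes. In 786-O cells both treated libraries lay below both untreated ones for 23 genes, 17 of them enzymes, against 23.3% of all genes.

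The first enzymes of the pathway make mevalonate and join its isoprene units into squalene. HMGCS1, the cytosolic HMG-CoA synthase, fell in 786-O cells to 66.2 and 57.0 CPM (counts in 1000000 recovered counts) with LY2606368, against 199.9 and 137 CPM untreated. The difference was −1.37 ± 0.23 (log2, SE; adjusted p 0.0462). Both treated libraries lay well below both untreated ones.

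Under the SETD2 KD label, Hmgcs1 had 10.84, 10.93, 11.17, 11.10 and 11.16 rlog with VE822, against a range of 10.94 to 11.27 around a median of 11.15 untreated. These groups overlapped, and the difference of −0.10 ± 0.08 did not pass the test (adjusted p 0.453). In tumours labelled WT it ranged from 10.62 to 11.05 around a median of 10.81 with VE822, against 11.06 to 11.54 around 11.28 untreated, a difference of −0.49 ± 0.08 (adjusted p 3.58e-05) with no overlap.

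Further enzymes of this stretch fell in both labels. Mvd, the decarboxylase that makes isopentenyl diphosphate, fell under both, with differences of −0.44 ± 0.10 in tumours labelled SETD2 KD (adjusted p 0.00403) and −0.63 ± 0.10 in those labelled WT (adjusted p 2.98e-05). Mvk, mevalonate kinase, fell to 79.2% of the untreated level (the log2 difference put on a linear scale) in tumours labelled SETD2 KD and to 74.7% in those labelled WT. Fdps, farnesyl diphosphate synthase, fell to 75.9% and 67.7% of untreated, in the same order of labels. Fdft1, squalene synthase, fell to 76.7% and 71.9%, its SETD2 KD call having an adjusted p of 0.0306. Without the 5 libraries that stood apart the difference of Fdft1 in tumours labelled SETD2 KD was −0.27 and missed the threshold (adjusted p 0.102).

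Idi1, which interconverts the isoprene units, had the largest fall of this stretch in tumours labelled WT, to 58.8% of untreated (difference −0.77 ± 0.14, adjusted p 0.000245). It was at 77.0% in tumours labelled SETD2 KD, short of the threshold (adjusted p 0.086). Acat2, the cytosolic thiolase, fell in tumours labelled WT (−0.30 ± 0.11, adjusted p 0.0359), a call lost in 12 of 21 alternatives, and its reads may be shared with its close mouse relative Acat3. Pmvk, phosphomevalonate kinase, passed the test in no comparison. In 786-O cells ACAT2 was at 70.1% and FDPS at 72.0% of untreated (adjusted p 0.0495 and 0.0405), while MVK (−0.82), IDI1 (−0.64), FDFT1 (−0.53) and MVD (−0.49) missed the threshold with adjusted p of 0.0629 to 0.2. With the replicate number as a block MVK and IDI1 passed it (adjusted p 0.0199 and 0.0167).

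The second stretch closes squalene into lanosterol and trims it to cholesterol. SQLE, squalene epoxidase, is the entry. In 786-O cells SQLE had 164 and 167 CPM with LY2606368, against 323 and 248 untreated, a difference of −0.72 ± 0.16 that missed the threshold (adjusted p 0.0762) and passed it with the replicate number as a block (adjusted p 0.0351).

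In tumours labelled SETD2 KD, Sqle had 12.80, 12.69, 12.98, 12.69 and 12.88 rlog with VE822, against 13.18 to 13.30 around a median of 13.26 untreated. The groups did not overlap, and the difference was −0.44 ± 0.08 (adjusted p 0.000666). Among tumours labelled WT, it ranged from 12.33 to 12.94 around 12.70 with VE822, against 13.22 to 13.49 around 13.34 untreated, also without overlap, a difference of −0.66 ± 0.08 (adjusted p 1.13e-06).

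DHCR7, the reductase that makes cholesterol in the last step of one branch, had 159.7 and 139 CPM in LY2606368 cells, against 294 and 232 in untreated cells. That difference of −0.75 ± 0.17 missed the threshold (adjusted p 0.0716), and passed it with the replicate number as a block (adjusted p 0.0139). Under the SETD2 KD label, Dhcr7 had 9.33, 9.51, 9.56, 9.78 and 9.59 rlog with VE822, against 9.83 to 10.07 around 9.89 untreated. The difference there was −0.37 ± 0.11 (adjusted p 0.0133), with no overlap. Under the WT label, the range was 9.23 to 9.64 around 9.31 with VE822, against 9.87 to 10.62 around 9.96 untreated, again with no overlap and a difference of −0.72 ± 0.10 (adjusted p 7.93e-06). The untreated library that reached 10.62, replicate 1, lay far above the rest of its group.

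Lss, lanosterol synthase, fell to 77.3% of untreated in tumours labelled SETD2 KD and to 63.3% in those labelled WT. Nsdhl, a sterol dehydrogenase on the X chromosome, fell to 77.8% and 66.2%, in that order. Cyp51, the lanosterol demethylase, and Msmo1, the methylsterol oxidase, were at 80.0% and 80.2% in tumours labelled SETD2 KD without passing the test (adjusted p 0.0905 and 0.0623). In tumours labelled WT both fell, to 65.2% and 65.8% (adjusted p 0.000504 and 0.000228). Ebp, the sterol isomerase, and Sc5d, the sterol desaturase, fell less in tumours labelled WT, to 88.7% and 80.8% of untreated, and without the 5 libraries that stood apart, in a fit of fewer libraries, the Sc5d difference was −0.25 and missed the threshold (adjusted p 0.0854). Tm7sf2, a sterol reductase, was close to the threshold in tumours labelled WT (−0.24 ± 0.10, adjusted p 0.0531). Hsd17b7, a keto-sterol reductase, stood at 102.3% of untreated in tumours labelled SETD2 KD and 97.7% in those labelled WT, where its 95% interval was −0.24 to 0.17.

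In 786-O cells the largest difference of all 30 genes was that of MSMO1, with 21.4 and 16.03 CPM in LY2606368 cells, against 66.1 and 41.8 in untreated cells. Both treated libraries lay below both untreated ones, and −1.43 ± 0.30 missed the threshold (adjusted p 0.0665, or 0.0116 with the replicate number as a block). EBP fell, with 48.3 and 43.9 CPM in LY2606368 cells, against 81.7 and 84.8 in untreated cells (−0.79 ± 0.08, adjusted p 0.0252). LSS (−0.72), HSD17B7 (−0.72), TM7SF2 (−0.87), SC5D (−0.52) and CYP51A1 (−0.46) missed the threshold with adjusted p of 0.0766 to 0.326, and with the replicate number as a block LSS and HSD17B7 passed it (adjusted p 0.0256 and 0.0436). Over the 8 alternatives, those that leave out a library included, LSS ranged from −1.01 to −0.42, TM7SF2 from −1.29 to −0.46 and SC5D from −0.84 to −0.20. NSDHL was the 1 enzyme not below 0 there (0.08 ± 0.18). CYP51A1 and FDPS have processed pseudogenes in the human genome, so their counts are uncertain as far as reads were shared.

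**Figure D2:**
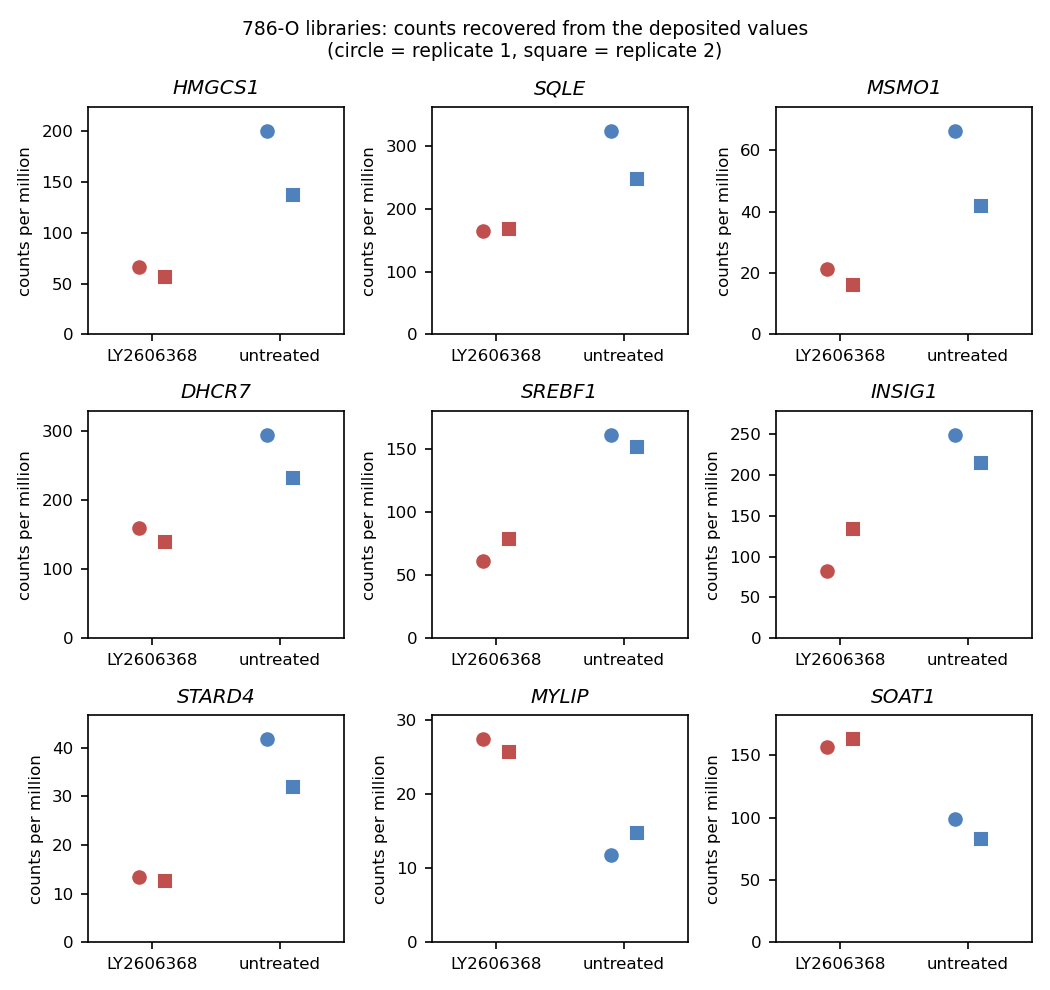
CPM (linear axis from 0) of 9 genes in the 4 786-O libraries, LY2606368 left and untreated right, circles for replicate 1 and squares for replicate 2. In the first 7 panels both treated libraries lie below both untreated ones, and in the MYLIP and SOAT1 panels both lie above.

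Of the SREBP control genes, SREBF1 fell in 786-O cells and Srebf2 in tumours of both labels. SREBF2 had 222 and 191 CPM in LY2606368 cells, against 325 and 273 in untreated cells, and did not pass (−0.48 ± 0.14, adjusted p 0.114), though it did with the replicate number as a block (adjusted p 0.0191). Srebf2 had 13.52, 13.48, 13.57, 13.70 and 13.56 rlog in SETD2 KD tumours with VE822, against 13.79 to 14.04 around 13.96 untreated, and fell by 0.38 ± 0.06 (adjusted p 0.000145). Among tumours labelled WT, it ranged from 13.33 to 13.71 around 13.50 with VE822, against 13.90 to 14.15 around 13.94 untreated, and fell by 0.50 ± 0.06 (adjusted p 1.02e-06). The groups overlapped under neither label, and both falls were as large without the 5 libraries that stood apart (−0.42 and −0.51, SETD2 KD first).

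SREBF1 had 61.4 and 79.0 CPM in LY2606368 cells, against 161 and 152 in untreated cells, and fell by 1.11 ± 0.15 (adjusted p 0.0336). Srebf1 had 12.41, 12.49, 12.40, 11.91 and 12.26 rlog in SETD2 KD tumours with VE822, against 12.38 to 12.73 around 12.51 untreated. The groups overlapped and the difference of −0.25 ± 0.09 missed the threshold (adjusted p 0.0555). Under the WT label, Srebf1 ranged from 11.99 to 12.41 around 12.22 with VE822, against 12.19 to 12.57 around 12.37 untreated, and did not pass (adjusted p 0.146).

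INSIG1, itself a target of the SREBPs, had 82.9 and 134 CPM in LY2606368 cells, against 248 and 214 in untreated cells. The 2 treated libraries lay far apart, and −1.07 ± 0.28 missed the threshold (adjusted p 0.0876). Insig1 had 10.97, 10.85, 11.23, 10.75 and 11.27 rlog in SETD2 KD tumours with VE822, against 11.02 to 11.26 around 11.18 untreated, overlapping and not passing (adjusted p 0.401). In tumours labelled WT it ranged from 10.47 to 11.50 around 10.86 with VE822, against 11.24 to 11.58 around 11.29 untreated, a difference of −0.45 ± 0.11 (adjusted p 0.0034) with overlap, since VE822 replicate 3 reached 11.50. Without the 5 libraries that stood apart it was −0.35 and missed the threshold (adjusted p 0.0804).

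Insig2 had 10.79, 10.66, 10.82, 10.55 and 10.80 rlog in SETD2 KD tumours with VE822, against 10.69 to 10.86 around 10.78 untreated, and did not pass (adjusted p 0.611). It ranged from 10.42 to 10.75 around 10.62 in WT tumours with VE822, against 10.67 to 10.96 around 10.83 untreated, and fell by 0.23 ± 0.06 (adjusted p 0.00429). INSIG2 had 6.71 and 8.50 CPM in LY2606368 cells, against 9.77 and 14.1 in untreated cells, and did not pass (adjusted p 0.214), though it did with the replicate number as a block (adjusted p 0.048).

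Scap, the escort, fell slightly under both labels. It had 11.63, 11.61, 11.59, 11.53 and 11.60 rlog in SETD2 KD tumours with VE822, against 11.73 to 11.92 around 11.85 untreated, a difference of −0.25 ± 0.05 (adjusted p 0.00124) with no overlap. In WT tumours it ranged from 11.49 to 11.73 around 11.58 with VE822, against 11.70 to 11.93 around 11.76 untreated, a difference of −0.19 ± 0.05 (adjusted p 0.00325) that was −0.16 and missed the threshold without the 5 libraries that stood apart (adjusted p 0.0595). SCAP had 131 and 115 CPM in LY2606368 cells, against 159 and 140.1 in untreated cells, and did not pass (adjusted p 0.328).

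**Figure D3:**
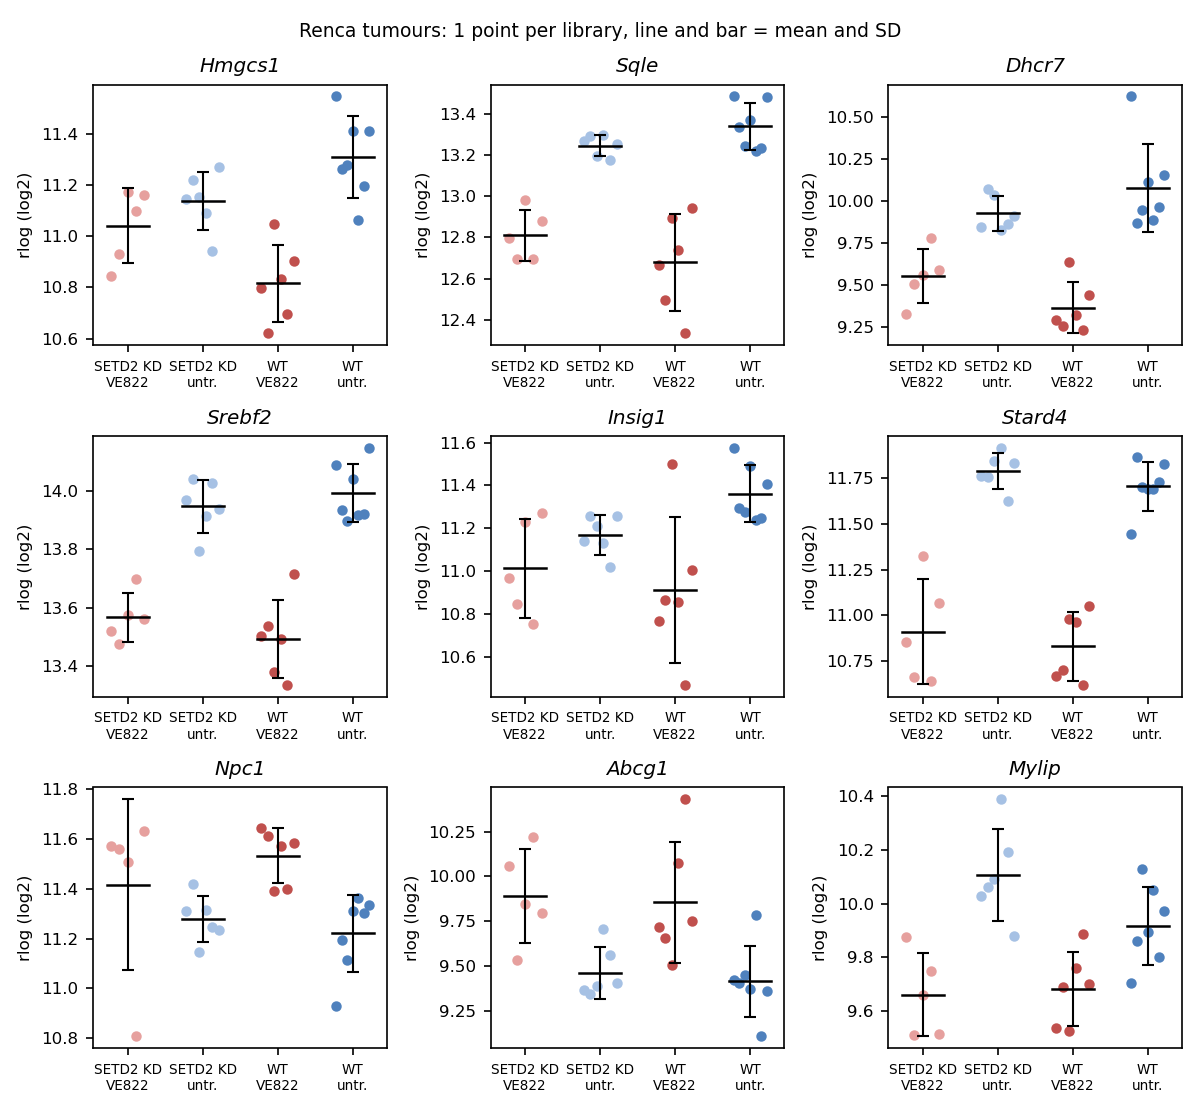
Level (rlog, log2 scale) of 9 genes in every Renca library, with line and bar for mean and SD (n = 5, 6, 6 and 7 from left to right) and VE822 left of untreated for each label. Sqle, Dhcr7, Srebf2 and Stard4 do not overlap between VE822 and untreated under either label, while Abcg1 lies higher with VE822 with overlap under both labels and Npc1 is separated under the WT label only.

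Among the genes of sterol handling, STARD4 fell in all 3 comparisons. STARD4 is a cytosolic carrier that moves cholesterol between membranes, and a known SREBP-2 target. It had 13.4 and 12.7 CPM in LY2606368 cells, against 41.7 and 31.9 in untreated cells, 38.0% of the untreated level (−1.40 ± 0.17, adjusted p 0.0296). In tumours labelled SETD2 KD, Stard4 had 10.86, 10.66, 11.33, 10.64 and 11.07 rlog with VE822, against 11.62 to 11.92 around 11.80 untreated. Among tumours labelled WT, it ranged from 10.62 to 11.05 around 10.83 with VE822, against 11.45 to 11.86 around 11.70 untreated. Neither label showed overlap. The differences were −0.88 ± 0.10 in tumours labelled SETD2 KD (adjusted p 2.87e-06) and −0.88 ± 0.10 in those labelled WT (adjusted p 4.38e-07), to 54.4% and 54.5% of untreated, and they were the largest falls among the 30 genes under each label. Without the 5 libraries that stood apart they were −0.81 in SETD2 KD and −0.83 in WT tumours (adjusted p 1.2e-05 and 3.34e-05).

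The export pumps and MYLIP are LXR targets, and did not move as one. Abcg1 had 10.06, 9.53, 9.85, 10.22 and 9.79 rlog in SETD2 KD tumours with VE822, against 9.34 to 9.71 around 9.40 untreated, and rose by 0.43 ± 0.14 (adjusted p 0.0276). It ranged from 9.51 to 10.43 around 9.74 in WT tumours with VE822, against 9.11 to 9.79 around 9.40 untreated, and rose by 0.44 ± 0.13 (adjusted p 0.00953). The groups overlapped under both labels, and the SETD2 KD call was lost in 7 of 19 alternatives. In 786-O cells ABCG1 was at or below 2 counts in every library, so no fold is given, although it is 1 of the 30 genes tested and of the 25 below 0.

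Abca1 had 11.05, 11.10, 11.52, 11.26 and 11.37 rlog in SETD2 KD tumours with VE822, against 10.65 to 11.52 around 10.90 untreated, and did not pass (adjusted p 0.182). It ranged from 10.81 to 11.48 around 11.16 in WT tumours with VE822, against 10.57 to 11.36 around 10.85 untreated, and did not pass (adjusted p 0.125). ABCA1 had 42.6 and 54.6 CPM in LY2606368 cells, against 43.7 and 79.3 in untreated cells, overlapping (adjusted p 0.646).

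Mylip fell in tumours and MYLIP rose in 786-O cells. MYLIP had 27.4 and 25.7 CPM in LY2606368 cells, against 11.7 and 14.7 in untreated cells (1.04 ± 0.13, adjusted p 0.0306). Mylip had 9.87, 9.51, 9.66, 9.75 and 9.51 rlog in SETD2 KD tumours with VE822, against 9.88 to 10.39 around 10.08 untreated, and fell by 0.45 ± 0.09 (adjusted p 0.000934) without overlap. It ranged from 9.52 to 9.89 around 9.70 in WT tumours with VE822, against 9.71 to 10.13 around 9.89 untreated, and fell by 0.23 ± 0.08 with overlap (adjusted p 0.0304), a call lost in 8 of 21 alternatives.

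NPC1 releases cholesterol from lysosomes, SOAT1 esterifies it for storage, and NR1H2 is a liver X receptor. Npc1 had 11.57, 11.56, 11.51, 10.81 and 11.63 rlog in SETD2 KD tumours with VE822, against 11.15 to 11.42 around 11.28 untreated. Replicate 4 alone lay below the untreated range, and the difference of 0.14 ± 0.11 did not pass (adjusted p 0.402). Without the 5 libraries that stood apart, replicate 4 among them, Npc1 (0.29, adjusted p 0.00464) and Soat1 (0.24, adjusted p 0.00839) were higher in SETD2 KD tumours with VE822. WT tumours held 11.39 to 11.64 rlog of Npc1 around 11.58 with VE822, against 10.93 to 11.36 around 11.30 untreated, with no overlap and a rise of 0.31 ± 0.10 (adjusted p 0.0174). SOAT1 rose in 786-O cells, with 157 and 163 CPM with LY2606368 against 98.8 and 82.5 untreated (0.87 ± 0.12, adjusted p 0.0351), and so did NR1H2, with 90.5 and 90.1 against 63.4 and 65.0 (0.54 ± 0.06, adjusted p 0.0267). Neither Soat1 nor Nr1h2 passed in tumours of either label in the model of all 24 libraries.

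Set against the mean of the untreated WT tumours, the median of the 18 enzymes in each library was −0.46, −0.48, −0.29, −0.40 and −0.34 (log2) in the 5 SETD2 KD VE822 tumours. It was −0.22 to 0.04 in the 6 untreated SETD2 KD tumours. It was −0.64, −0.56, −0.17, −0.55, −0.80 and −0.40 in the 6 WT VE822 tumours, and −0.13 to 0.29 in the 7 untreated WT tumours. WT VE822 replicate 3 had the smallest fall, inside the range of the untreated SETD2 KD tumours and below every untreated WT tumour.

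**Figure D4:**
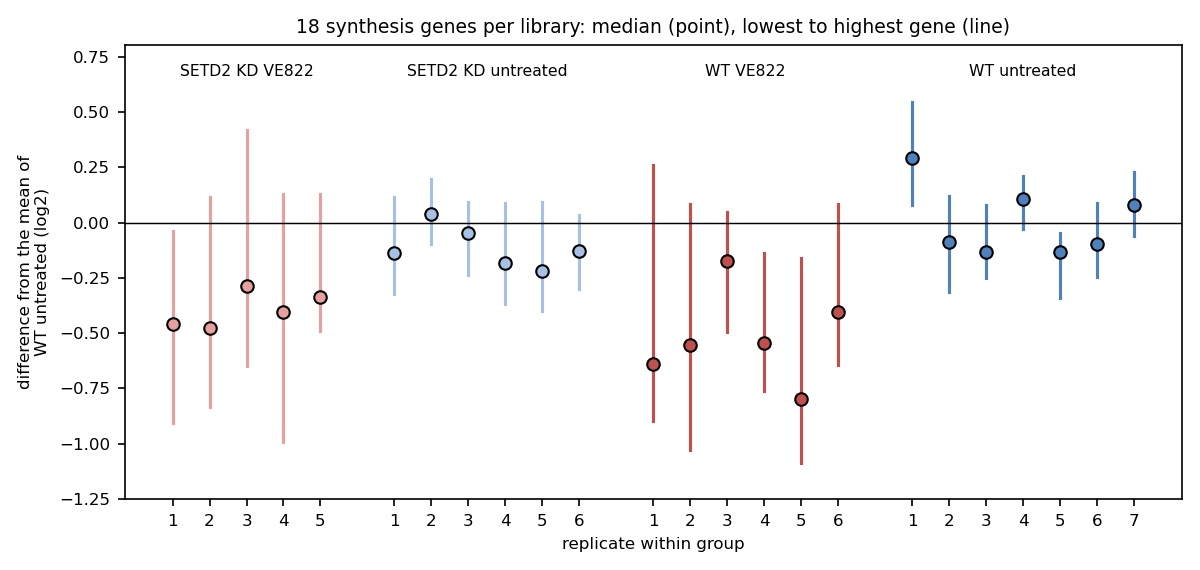
Difference (log2) of the 18 synthesis enzymes from their mean in untreated WT tumours, 1 column per Renca library, with the median enzyme as a point and the lowest to highest enzyme as a line. All 11 VE822 medians lie at or below −0.17, and the 13 untreated medians lie between −0.22 and 0.29.

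The SETD2 KD and WT labels themselves were compared. In untreated tumours labelled SETD2 KD against WT, none of the 30 genes passed the test, against 0% of all genes (limma, 0 of 15916, with 512 at an unadjusted p under 0.05, 3 of the 30 among them). Under VE822 none of the 30 passed between SETD2 KD and WT, against 0.0126% of all genes (2 genes, and 2 of the 30 at an unadjusted p under 0.05). The interaction of label and VE822, which tests whether the response differed, passed for none of the 30, against 0% of all genes (limma, 1452 at an unadjusted p under 0.05, 3 of the 30 among them). Its estimate was above 0, a smaller fall in SETD2 KD tumours, for 17 of the 18 enzymes, with a median of 0.18 (log2). The median over all genes was −0.0035. Part of this came from the untreated tumours, where 16 of the 18 enzymes were lower in SETD2 KD than in WT (median −0.10). Under VE822, 13 of the 18 were higher in SETD2 KD (median 0.10). Hmgcs1 had the largest interaction estimate, 0.40 ± 0.11 (adjusted p 0.424, 95% interval 0.16 to 0.63), then Idi1 at 0.39 ± 0.21 and Dhcr7 at 0.34 ± 0.14 (adjusted p 0.588 and 0.513). Stard4 had −0.001 ± 0.141, with an interval of −0.29 to 0.29. The 9 genes past the threshold in WT alone (Acat2, Hmgcs1, Idi1, Cyp51, Msmo1, Ebp, Sc5d, Insig1 and Insig2) are therefore not shown to respond differently between labels. The comparisons share the untreated groups of their label.

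Other genes of lipid synthesis were read from lists that share no gene with the 30 and were also chosen with earlier results known. The counts of each list stand against 11.6% of all genes lower and 10.6% higher in SETD2 KD tumours. These shares were 17.5% and 17.2% in WT tumours, and 6.16% and 7.05% in 786-O cells. Of the fatty acid genes that SREBPs also drive, VE822 lowered 6 of 14 and raised 0 in tumours labelled SETD2 KD, and lowered 10 of 14 and raised 0 in those labelled WT. Scd2 and Fads2, a pair of desaturases, fell under both labels, with differences of −0.65 ± 0.15 and −0.61 ± 0.08 in SETD2 KD tumours (adjusted p 0.00298 and 1.09e-05) and −0.81 ± 0.14 and −0.78 ± 0.07 in WT tumours (adjusted p 9.33e-05 and 6.58e-08). Acly, which makes cytosolic acetyl-CoA, fell by 0.38 ± 0.06 in SETD2 KD tumours. In 786-O cells 2 of 13 fell and 0 rose: FADS2 (−1.57 ± 0.24, adjusted p 0.039) and ELOVL6, a fatty acid elongase (−0.74 ± 0.11, adjusted p 0.0394).

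The SREBP proteases and the machinery that degrades sterol-regulated proteins showed 4 of 11 lower and 0 higher in SETD2 KD tumours with VE822, and 7 lower and 1 higher in WT tumours. Ube2g2, a ubiquitin-conjugating enzyme, fell (−0.42 ± 0.06 in SETD2 KD and −0.44 ± 0.05 in WT tumours), and so did Mbtps1, which makes the first cut in SREBPs (−0.34 ± 0.07 in SETD2 KD and −0.37 ± 0.07 in WT tumours). In 786-O cells 3 of 11 were higher and 1 lower, not all named here: UBE2G2 (0.84 ± 0.09) and AUP1 (0.92 ± 0.06) rose, and MBTPS1 fell (−0.65 ± 0.06, adjusted p 0.0251), the last named after its value was seen.

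Of 16 further genes of sterol transport, 7 were lower and 2 higher in SETD2 KD tumours with VE822, and 4 lower and 2 higher in 786-O cells. In WT tumours 3 were lower and 3 higher, near the shares of all genes (17.5% and 17.2%). Gramd1c, of a family that moves plasma membrane cholesterol, fell (−0.55 ± 0.15 in SETD2 KD and −0.63 ± 0.14 in WT tumours). NCEH1, a cholesteryl ester hydrolase, rose by 1.38 ± 0.10 in 786-O cells, where OSBPL5 (−1.44 ± 0.12) and TMEM97, a sterol-regulated membrane protein (−1.02 ± 0.16), fell. The isoprenoid branch had 1 lower and 0 higher of 12 in SETD2 KD tumours, under the shares of all genes. The branch had 6 lower and 2 higher in WT tumours, and 1 lower and 2 higher in 786-O cells. Its largest calls were Fnta (−0.21 ± 0.06) in SETD2 KD, Pdss1 (0.29 ± 0.06) in WT tumours and RABGGTB (1.31 ± 0.10) in 786-O cells. LXR partners and targets had 0 calls of 8 in SETD2 KD tumours (limma, 3 at an unadjusted p under 0.05). They had 1 lower and 1 higher of 8 in WT tumours, each under the share of all genes. In 786-O cells 2 of 9 were lower, and not all of these calls are named here. Lpcat3, a phospholipid acyltransferase, rose in WT tumours (0.32 ± 0.10), and RXRA, the partner of the liver X receptors, fell in 786-O cells (−1.11 ± 0.16). Of 6 oxysterol enzymes 2 were lower and 0 higher in SETD2 KD tumours, not all named here. In WT tumours 1 was lower and 0 higher, near the share of all genes lower (17.5%). Cyp27a1 fell under both labels (−0.45 ± 0.08 in SETD2 KD and −0.24 ± 0.07 in WT tumours). None of 4 oxysterol enzymes was called in 786-O cells (limma, 1 at an unadjusted p under 0.05).

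Some cell type markers in the tumours moved with treatment too, most clearly those of T cells and of the renal and tumour line. Fewer cells of a type cannot be told apart from less RNA per cell in these bulk libraries. The counts stand against 11.6% of all genes lower and 10.6% higher in SETD2 KD tumours, and 17.5% and 17.2% in WT tumours. T cell markers rose for 10 of 10 genes in SETD2 KD tumours, where the log2 of their summed level was 9.90 to 10.41 with VE822, against 8.92 to 9.26 untreated. They rose for 9 of 10 in WT tumours (9.32 to 10.27 with VE822, against 8.81 to 9.31 untreated). Fibroblast markers rose for 0 of 9 in SETD2 KD (14.03 to 15.49 with VE822, against 13.43 to 15.09 untreated) and 5 of 9 in WT tumours (14.73 to 17.61, against 13.25 to 15.30). Renal and tumour line markers fell for 5 of 9 genes and rose for 1 in SETD2 KD tumours (16.67 to 16.91 with VE822, against 16.99 to 17.28 untreated), and 5 fell and 2 rose in WT tumours (16.53 to 16.86, against 17.04 to 17.22). Macrophage markers showed 1 higher and 3 lower of 10 under each label, at 15.70 to 16.08 with VE822 against 15.85 to 16.04 untreated in SETD2 KD, and 15.48 to 16.13 against 15.74 to 16.22 in WT tumours. Skeletal muscle markers were higher for 3 of the 10 listed in WT tumours (8.22 to 12.92, against 7.92 to 10.08) and for 0 in SETD2 KD tumours (7.63 to 8.34, against 8.06 to 8.95). Endothelial markers were higher for 1 of 8 under each label, and adipocyte markers for 1 of 8 under each label, with 1 lower in WT tumours. Cycling cell markers showed 1 lower and 0 higher of 10 in SETD2 KD tumours and 0 lower and 2 higher in WT tumours. The endothelial, adipocyte and cycling cell calls are close to the shares of all genes or under them. Keratinocyte and hepatocyte markers, at median levels of 0.18 and −0.51 rlog over the 24 libraries, gave no call, all of them being too low to be tested. The part of these shifts in the fall of the cholesterol genes was not tested. Without the 5 libraries that stood apart, 12 of the 30 genes were lower and 2 higher in SETD2 KD and 16 lower and 2 higher in WT tumours. Of all 15916 genes, 2337 were then lower and 2420 higher in SETD2 KD, and 2326 lower and 2227 higher in WT tumours.

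In 786-O cells, a single line, cycling cell markers were lower for 5 and higher for 2 of 10 genes, against 6.16% of all genes lower and 7.05% higher. Their summed raw counts were 55577 and 56256 in LY2606368 cells, against 68103 and 65998 in untreated cells. Renal and tumour line markers were lower for 3 of 9 (57303 and 54702 summed raw counts, against 77730 and 75382). These sums are not scaled to the library totals, 21447859 and 20834400 with LY2606368 and 23956007 and 23492424 untreated. The lower totals make up some of the gap in raw counts. The part of these markers in the 786-O result was not tested. Of the other lists, the endothelial, keratinocyte and hepatocyte ones held 1 higher call each, and the macrophage, T cell, fibroblast, skeletal muscle and adipocyte ones held none by limma.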

How the data were processed

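RNA sequencing of 786-O cells and Renca tumours is described. The tools named for the authors' deposited tables, per the submitters' processing notes, are FastQC, TopHat, HTSeq and DESeq2, with the builds hg38 and GRCm38. Roles, versions and strandedness: not given in the sources used here. The authors deposited human values as variance-stabilised log2 values (named so in the file header) and mouse values as rlog, also a log2 scale. No value column was left unmapped.

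Human values fell on steps above a floor of 2.47. A fit of the transform to the lowest 40 steps gave back the counts (100% of values below 1000 counts whole within 0.1). CPM values, counts in 1000000, use these totals. Mouse depth is unknown. Groups came from the labels. Nothing says that libraries are separate animals or cultures, so p-values measure the spread between libraries, which may be technical.

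Differences were tested with limma 3.58.1 (R 4.3.3, mean-variance trend) on the deposited log2 values: 2 groups in human (29353 genes not constant) and 4 group means over 24 mouse libraries (15916 genes whose mean rlog reached 3). The Benjamini-Hochberg adjustment ran over all genes of a comparison, threshold 0.05. Models were run on simulated data with independent, normally distributed noise, to check that known shifts were recovered. This does not check the calls made on the real libraries. The design text describes 2 experiments, and the 786-O replicate numbers in the titles were taken to pair the libraries, an inference: deviations within pairs correlated at 0.158 over 29353 genes and 0.511 over the 12731 with a mean of at least 5. Values are from the model without the block, which is given where it changes a call. Every member is named. Of other lists, the called genes with the largest change are named, up to 3 per list. Results of some genes of these lists are not reported here. The members and lists were chosen with earlier results of these data known. Mouse names come from GENCODE vM21 through the Ensembl identifiers (98.16% of rows matched), promoters from RefSeq. Alternatives were other filters (none, or a mean of at least 6 in mouse and 5 in human), quantile normalisation, no trend, library weights, chromosome medians removed, only the 2 groups compared, and each library left out. Leaving out the 5 libraries that stood apart was chosen after seeing the data.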

Additional observations from a re-analysis of the deposited data

Results flagged for a closer look

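Of 120 groups of 4 to 10 libraries examined for the 30 genes in Renca tumours, 7 held a library far from the rest of its group, and chance gives about 1 in 20. In SETD2 KD VE822 replicate 4, Npc1 stood at 10.81 rlog against 11.51 to 11.63 in the other libraries, and Soat1 at 12.47 against 13.19 to 13.39. This is 1 of the libraries that stood apart. In SETD2 KD untreated replicate 2, Mvd stood at 10.05 rlog against 9.77 to 9.85. In WT untreated replicate 1, Mvk stood at 9.98 against 9.47 to 9.65, Dhcr7 at 10.62 against 9.87 to 10.15, and Stard4 at 11.45 against 11.69 to 11.86, so both enzymes were high and the carrier low in the same library. In WT untreated replicate 5, Abca1 stood at 11.36 against 10.57 to 10.90.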

How the results depend on the processing

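Of the 30 genes, 6 were lower and 3 higher in LY2606368 than in untreated cells. The replicate block gave 15 lower and 3 higher (9.71% and 9.31% of all genes), a filter at a mean of 5 gave 17 lower of 29 tested (25.2% of the 12731 genes left, against 6.16% before), quantile normalisation gave 10 lower (7.5% of all genes), and the model without trend gave 0 lower and 0 higher, as it gave 0 among all genes (8654 at an unadjusted p under 0.05). Leaving out 1 library leaves 1 library in a group, so only differences are given for it. Over the 8 alternatives, those included, ACAT2 ranged from −0.605 to −0.418 and FDPS from −0.519 to −0.428 (log2). MYLIP ranged from 0.90 to 1.18, SOAT1 from 0.726 to 1.021 and NR1H2 from 0.514 to 0.545. No 786-O call held in all 8 alternatives, and none could, since the model without trend called 0 among all genes. Why calls differed between the other alternatives was not tested.

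In SETD2 KD tumours the 12 genes lower ranged from 10 to 13 over 19 alternatives. The count over all 15916 genes moved more, from 1852 lower to 2635 with library weights and 2337 without the 5 libraries that stood apart. The count of members stayed at 12 in both, but the genes changed: Fdft1 was lost and Ebp gained in each. The 1 gene higher became 0 without a filter, 3 with library weights, 2 without the 5 libraries that stood apart, and 0 to 2 with 1 library left out. Over all genes, 1688 were higher, 2554 with library weights and 2420 without the 5. Of 13 calls, 9 held in all 19 alternatives. Those lost somewhere were Fdft1, Nsdhl and Abcg1, and Lss with chromosome medians removed (adjusted p 0.1). In WT tumours the 21 genes lower ranged from 16 to 22 over 21 alternatives, and 18 of 23 calls held in all 21 alternatives. Of all 15916 genes 2793 were lower, 2326 without the 5 libraries that stood apart and 3193 with quantile normalisation. The calls of Acat2, Mylip, Sc5d, Scap and Insig1 in WT tumours did not hold in all. No call changed direction in the alternatives run. Between labels and in the interaction none of the 30 was called in any alternative. No paired analysis was possible for Renca because its replicate numbers follow accession order. Unknown depth limits the Renca values.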
